A study of Mus musculus with 6 samples.

Results

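The CDK inhibitors are small proteins that bind cyclin-dependent kinases or their cyclin complexes and hold back the cell cycle. Their 7 genes in the mouse were taken as a family by name, Cdkn1a, Cdkn1b and Cdkn1c of the CIP/KIP group and Cdkn2a, Cdkn2b, Cdkn2c and Cdkn2d of the INK4 group, out of 23892 genes with a symbol in the count tables. Each gene was represented by its RefSeq transcript with the highest mean count, and a gene at 3 counts or fewer would have been reported as not detected. All 7 genes were above 3 counts in each of the 6 libraries, and all 7 passed the filter on low counts that left 12380 genes for testing. The transcripts were NM_007669 (Cdkn1a, chromosome 17), NM_009875 (Cdkn1b, chromosome 6), NM_001161624 (Cdkn1c, chromosome 7), NM_009877 (Cdkn2a), NM_007670 (Cdkn2b) and NM_007671 (Cdkn2c, all of chromosome 4), and NM_009878 (Cdkn2d, chromosome 9). No exon of these genes overlapped an exon of another gene on either strand.

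INK4 proteins bind the monomeric kinases CDK4 and CDK6 and keep them from pairing with D-type cyclins, whereas CIP/KIP proteins bind cyclin and kinase complexes together and block CDK2 complexes most strongly. Inhibition of these kinases leaves the retinoblastoma protein and its relatives in their growth-restraining state, in which they hold E2F factors in check. Red cell precursors leave the cell cycle as they mature, and CDK inhibitors are known to take part in that exit.

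The cells were MEL, a mouse erythroleukemia line, and the inducer was dimethyl sulfoxide (DMSO). Polyadenylated RNA was sequenced by a strand-specific protocol from cells before induction (day 0) and after 2 or 4 days in 2% DMSO, with 2 biological replicates per day. There was no vehicle or time-matched untreated culture among the 6 libraries used here, so time in culture and DMSO cannot be told apart. The libraries held 43415610 and 53899476 counts on transcripts at day 0, 39258359 and 45896399 at day 2, and 35294930 and 45621291 at day 4.

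Marker genes of erythroid cells and of other cell types were read in each library. The summed level of 11 erythroid markers was 1643 and 1763 CPM (counts per 1000000 counts, with library sizes scaled by the TMM factors of edgeR) at day 0, 4851 and 5721 at day 2, and 18559 and 20811 at day 4, and Hba-a1, an alpha-globin gene, had the highest mean of them over the 6 libraries. The 7 macrophage and granulocyte markers measured summed to 6.91 and 6.63 CPM at day 0 and to 3.19 and 2.54 CPM at day 4, with Cd68 the highest on average and Itgam and Elane at or below 3 counts throughout. Fibroblast markers reached at most 3.24 CPM in sum, with Col1a1 the highest on average and with Col1a2, Col3a1 and Dcn at or below 3 counts in every library. Megakaryocyte and mast cell markers summed to 270 and 273 CPM at day 0, 211 and 234 CPM at day 2 and 543 and 618 CPM at day 4, with Itga2b the highest on average and Mcpt8 at or below 3 counts. Without Itga2b the same sum went down, from 61.1 and 46.1 CPM at day 0 to 15.9 and 14.7 CPM at day 2 and 12.5 and 11.3 CPM at day 4. The part of these marker changes in the results for the CDK inhibitors was not tested. In RNA from whole cultures, fewer cells that express a gene and less of its RNA per cell cannot be told apart.

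After 2 days of DMSO, 4 of the 7 CDK inhibitor genes had changed, by an edgeR adjusted p below 0.05 over all 18351 tested transcripts. Of all tested genes, 62.5% were called in this comparison. The 4 were Cdkn1a, Cdkn2a and Cdkn2d, which were lower (31.5% of all tested genes), and Cdkn2c, which was higher (31.0%). From day 2 to day 4, 3 of the 7 were called against 30.3% of all genes, with Cdkn2a and Cdkn1c lower (16.2% of all genes were lower) and Cdkn2b higher (14.0%). Between day 0 and day 4, 6 of the 7 were called against 71.8% of all genes: Cdkn1a, Cdkn1c, Cdkn2a and Cdkn2d were lower (36.4%) and Cdkn2b and Cdkn2c were higher (35.5%). With 7 genes these shares lie near those of all genes, and the number of CDK inhibitors called does not set the family apart. From day 0 to day 4 the 7 genes had a median log2 fold change of -0.51, beside -0.02 over all tested genes. This median is the value of Cdkn2d, which was -0.17 without replicate 2 of day 0. When each library was left out in turn, the calls from day 2 to day 4 changed both among the 7 genes and over all tested transcripts. The 3 comparisons share libraries and are not independent of each other.

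**Figure D1:**
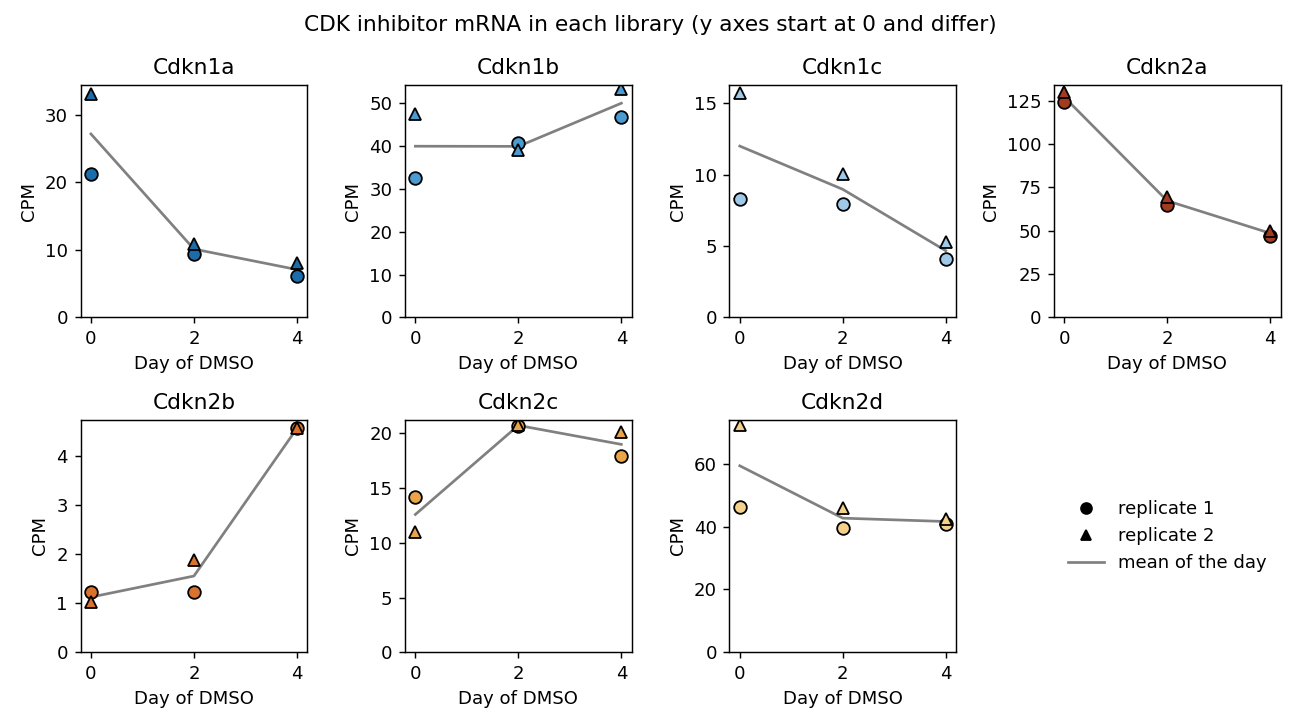
Level of each CDK inhibitor mRNA in CPM (y axis, starting at 0 and scaled per gene) against the day of DMSO (x axis), with a circle for replicate 1, a triangle for replicate 2 and a line through the daily means. Cdkn1a and Cdkn2a lie lower at each later day, Cdkn2b reaches 4.57 CPM in both day 4 libraries, and Cdkn2c lies above its day 0 values at day 2 and day 4.

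The INK4 genes moved in different directions. Cdkn2a gives rise to p16Ink4a, an inhibitor of CDK4 and CDK6, and, from an upstream start and in another reading frame, to p19Arf, which binds Mdm2 and so stabilises p53 and is not itself a CDK inhibitor. The transcript with the higher mean count was the p19Arf transcript, NM_009877, and it therefore stands for the gene here. It was at 124 and 130 CPM at day 0, at 64.8 and 69.7 CPM at day 2 and at 47.2 and 49.9 CPM at day 4. Replicates lay close together on each day, and no library of a later day reached any library of an earlier one. The log2 fold change was -0.92 ± 0.10 (SE; edgeR adjusted p = 2.01e-05) from day 0 to day 2, -0.47 ± 0.10 (edgeR adjusted p = 0.00607) from day 2 to day 4 and -1.39 ± 0.10 (edgeR adjusted p = 5.78e-07) over the whole course. The later of these steps lost its call when either day 2 library or replicate 1 of day 4 was left out, with log2 fold changes from -0.52 to -0.42.

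The p16Ink4a transcript, NM_001040654, was at 103 and 103 CPM at day 0, 47.3 and 54.0 CPM at day 2, and 39.8 and 41.1 CPM at day 4. It fell between days, without overlap between days, with log2 fold changes of -1.02 ± 0.11 (edgeR adjusted p = 1.33e-05), -0.32 ± 0.11 (edgeR adjusted p = 0.040) and -1.35 ± 0.11 (edgeR adjusted p = 9.78e-07). The transcripts share their exons downstream of the start exon, and reads from the shared exons appear to have been counted for each, so the pair of values are not taken as separate measurements. The p19Arf transcript held 853 and 1357 more counts than the p16Ink4a transcript at day 0, 731 and 773 more at day 2, and 267 and 398 more at day 4. In CPM this excess was 20.9 and 27.3 at day 0, 17.5 and 15.7 at day 2 and 7.40 and 8.79 at day 4. If shared reads were counted for each transcript, the excess reflects reads outside the shared exons, and it gives no level for either transcript alone.

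Cdkn2b encodes p15Ink4b, the INK4 protein known as a target of TGF-beta signalling, and its gene is a neighbour of Cdkn2a. It was the member with the lowest level at day 0, at 1.23 and 1.03 CPM, from 50 and 51 counts. At day 2 it was at 1.22 and 1.89 CPM, a range that overlaps day 0, and at day 4 both libraries were at 4.57 CPM, from 165 and 207 counts. Both day 4 libraries thus lay above the 4 earlier ones. Cdkn2b had a log2 fold change of 0.48 ± 0.26 at day 2 (edgeR adjusted p = 0.124), 1.54 ± 0.23 from day 2 to day 4 (edgeR adjusted p = 0.00102) and 2.02 ± 0.24 from day 0 to day 4 (edgeR adjusted p = 1.91e-05). The last value corresponds to a 4.07-fold rise with a 95% interval of 2.81 to 5.88. This was the largest rise in the family. The value at day 2 depended on the day 2 libraries, at 0.75 without replicate 1 and 0.13 without replicate 2, and was not called in either case.

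Cdkn2a and Cdkn2b lie next to each other on chromosome 4 and moved in opposite directions, so the sequences just upstream of their starts are shown. The start of Cdkn2b is 16413 bases from the p19Arf start, which is 12427 bases from the p16Ink4a start, all on the minus strand. Each line gives the 250 bases before a start, 5′ to 3′, from RefSeq (GRCm38.p6), with capitals at matches, on either strand, to the motifs searched. The windows are chr4:89294620-89294869 (p19Arf), chr4:89282193-89282442 (p16Ink4a) and chr4:89311033-89311282 (Cdkn2b).
Cdkn2a p19Arf start: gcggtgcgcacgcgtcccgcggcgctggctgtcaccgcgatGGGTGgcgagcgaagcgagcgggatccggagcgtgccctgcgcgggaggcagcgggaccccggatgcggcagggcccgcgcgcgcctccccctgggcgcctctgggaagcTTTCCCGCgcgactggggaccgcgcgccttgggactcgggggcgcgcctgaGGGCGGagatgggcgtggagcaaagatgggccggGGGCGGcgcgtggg
Cdkn2a p16Ink4a start: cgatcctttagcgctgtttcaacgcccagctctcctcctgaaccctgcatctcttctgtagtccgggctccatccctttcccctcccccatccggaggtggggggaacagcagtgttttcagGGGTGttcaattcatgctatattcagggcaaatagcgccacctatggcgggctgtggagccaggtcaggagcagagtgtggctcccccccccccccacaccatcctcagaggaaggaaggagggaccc
Cdkn2b start: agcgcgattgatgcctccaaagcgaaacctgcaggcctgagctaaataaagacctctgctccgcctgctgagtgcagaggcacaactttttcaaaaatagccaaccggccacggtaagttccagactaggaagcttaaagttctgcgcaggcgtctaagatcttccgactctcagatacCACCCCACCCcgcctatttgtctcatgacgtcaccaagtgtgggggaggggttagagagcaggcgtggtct

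The p19Arf window had a G and C content of 78.4% and held 2 GC boxes (GGGCGG), 1 E2F motif (TTTCCCGC or TTTGGCGC) and 1 CACCC motif. The p16Ink4a window, at 60.0%, held 1 CACCC motif, and the Cdkn2b window, at 53.6%, held 2 adjacent CACCC motifs starting 71 and 66 bases before the start. Among 32851 promoter windows of the same length, 32.7% held a GC box, 52.0% a CACCC motif and 1.30% an E2F motif. Promoter entries were found for 6 of the 7 genes, with 9 starts, and Cdkn1c had none. Of the 9 windows, 5 had a GC box and 7 a CACCC motif, while 2 had a CCAAT box (33.8% of all windows) and 1 a GATA motif (AGATAA or TGATAA or, with a final G, AGATAG or TGATAG; 26.5%). None of the 9 windows held the E-box CACGTG (6.02%), the TATA motif TATAAA (12.4%) or the FOXO motif GTAAACA (3.17%). A match describes the letters of a window and was not tested for binding or use.

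Cdkn2c encodes p18Ink4c. It was at 14.2 and 11.0 CPM at day 0, at 20.7 and 20.8 CPM at day 2 and at 17.9 and 20.1 CPM at day 4. Its libraries from day 2 and day 4 all lay above those of day 0. Cdkn2c had a log2 fold change of 0.72 ± 0.15 at day 2 (edgeR adjusted p = 0.00129) and 0.60 ± 0.15 at day 4 against day 0 (edgeR adjusted p = 0.00333). From day 2 to day 4 it was -0.13 ± 0.14 (edgeR adjusted p = 0.542; 95% interval -0.44 to 0.19). For Cdkn2c the step from day 2 to day 4 also differed from the step from day 0 to day 2, by -0.85 ± 0.25 on the log2 scale (edgeR adjusted p = 0.0249). Over all genes this difference between steps was called for 30.0%. Among the 7 transcripts that stand for the family, it was called for Cdkn2c alone in the fit without a replicate block. A fit of all 6 libraries with the replicate number as a block also called that of Cdkn1a (0.87; edgeR adjusted p = 0.0292). Calls of this difference changed when single libraries were left out, as did the calls from day 2 to day 4 over all tested transcripts. That of Cdkn2c was lost without either day 2 library or without replicate 1 of day 4, while its values there were -0.85, -0.85 and -0.77. Without day 0 replicate 1 the difference was also called for Cdkn1a, Cdkn1b, Cdkn2a and Cdkn2d, and without day 0 replicate 2 for Cdkn1c and Cdkn2a. The share of all genes with this difference called in those fits is not given here, so these calls do not set the members apart. The p16Ink4a transcript had a called difference as well, 0.70 ± 0.19 (edgeR adjusted p = 0.0173), beside 0.45 ± 0.18 for the p19Arf transcript (edgeR adjusted p = 0.0767).

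Cdkn2d encodes p19Ink4d, and was at 46.3 and 72.3 CPM at day 0, at 39.4 and 45.9 CPM at day 2 and at 40.7 and 42.5 CPM at day 4. Its day 0 replicates stood apart from each other, with replicate 2 at 0.64 above replicate 1 on the log2 scale, and only 7.79% of all tested genes differed by as much at day 0. The log2 fold change was -0.48 ± 0.18 at day 2 (edgeR adjusted p = 0.0353), -0.04 ± 0.18 from day 2 to day 4 (edgeR adjusted p = 0.896) and -0.51 ± 0.18 at day 4 against day 0 (edgeR adjusted p = 0.0221). Without replicate 2 of day 0, the values for Cdkn2d were -0.13 at day 2 (edgeR adjusted p = 0.353) and -0.17 at day 4 against day 0 (edgeR adjusted p = 0.201). Its call at day 2 was also lost without either day 2 library (-0.37 and -0.59), its call at day 4 against day 0 without either day 4 library (-0.48 and -0.55), and both under scaling by total counts (-0.28 and -0.40).

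The CIP/KIP genes were 2 that were called lower between day 0 and day 4 and 1 that was not called. Cdkn1a encodes p21, the best-known target of p53 and an inhibitor of CDK2 complexes. It was at 21.3 and 33.1 CPM at day 0, at 9.34 and 10.9 CPM at day 2 and at 6.07 and 8.11 CPM at day 4. Each later day lay below each earlier one, although the day 0 replicates were far apart, by 0.64 on the log2 scale. Cdkn1a had a log2 fold change of -1.42 ± 0.21 at day 2 (edgeR adjusted p = 0.000154) and -1.93 ± 0.22 over 4 days (edgeR adjusted p = 1.13e-05), a 3.82-fold fall. From day 2 to day 4 it was -0.51 ± 0.22 (edgeR adjusted p = 0.097). That step of Cdkn1a passed the threshold when either day 0 library was left out, but those fits called more of all tested transcripts in it. Day 0 libraries enter that step only through the estimated spread, the scaling and the filter, so those calls are not read as a fall.

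The upstream start of Cdkn1a (chr17:29090729-29090978, plus strand) is shown because the gene had the largest fall of the family, with capitals at its GATA and CACCC matches. Its downstream start (chr17:29093519-29093768) had 2 GC boxes and no GATA or CACCC match. A p53 motif was not among those searched, so lower-case letters do not show that one is absent.
Cdkn1a upstream start: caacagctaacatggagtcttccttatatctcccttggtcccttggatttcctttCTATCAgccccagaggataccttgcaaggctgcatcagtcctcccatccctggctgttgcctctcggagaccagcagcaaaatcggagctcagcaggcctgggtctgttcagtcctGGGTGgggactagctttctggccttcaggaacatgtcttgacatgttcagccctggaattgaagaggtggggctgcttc

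Cdkn1b encodes p27, the CIP/KIP protein whose level is set largely by protein degradation. It was at 32.5 and 47.4 CPM at day 0, at 40.8 and 39.1 CPM at day 2 and at 46.8 and 53.2 CPM at day 4. The day 0 replicates spanned the day 2 values and the lower day 4 value, and no comparison was called. Its log2 fold change was -0.003 ± 0.16 at day 2 (edgeR adjusted p = 0.988), 0.33 ± 0.16 from day 2 to day 4 (edgeR adjusted p = 0.146) and 0.32 ± 0.16 at day 4 against day 0 (edgeR adjusted p = 0.0904; 95% interval -0.03 to 0.67). Without day 0 replicate 2, its values were 0.29 at day 2 (edgeR adjusted p = 0.0405) and 0.61 at day 4 against day 0 (edgeR adjusted p = 0.000242), while without day 0 replicate 1 they were -0.25 (edgeR adjusted p = 0.0577) and 0.07 (edgeR adjusted p = 0.572). The later step kept its values of 0.32 and 0.32 without either day 0 library. It passed the threshold in those fits, which also called more of all tested transcripts in that step. Day 0 libraries enter it only through the estimated spread, the scaling and the filter, so those calls are not read as a rise. With all 6 libraries, a rise of up to 1.60-fold lay within the interval.

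Cdkn1c encodes p57, the CIP/KIP protein of an imprinted gene. It was at 8.31 and 15.7 CPM at day 0, at 7.93 and 10.0 CPM at day 2 and at 4.07 and 5.28 CPM at day 4. The day 2 libraries lay on either side of the lower day 0 library, and both day 4 libraries lay below all others. The log2 fold change was -0.42 ± 0.26 at day 2 (edgeR adjusted p = 0.172), -0.94 ± 0.27 from day 2 to day 4 (edgeR adjusted p = 0.0242) and -1.36 ± 0.27 over 4 days (edgeR adjusted p = 0.000859). Its day 0 replicates differed by 0.92 on the log2 scale, more than all but 2.98% of tested genes at that day. Without day 0 replicate 2 the value at day 2 turned to 0.11 (edgeR adjusted p = 0.646), and without day 0 replicate 1 it was -0.80 (edgeR adjusted p = 0.000901). Over 4 days the same omissions gave -0.83 and -1.75, both called, so the fall held while its size depended on day 0. The call from day 2 to day 4 was lost without any of the 4 libraries of those days (-1.15 to -0.76).

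**Figure D2:**
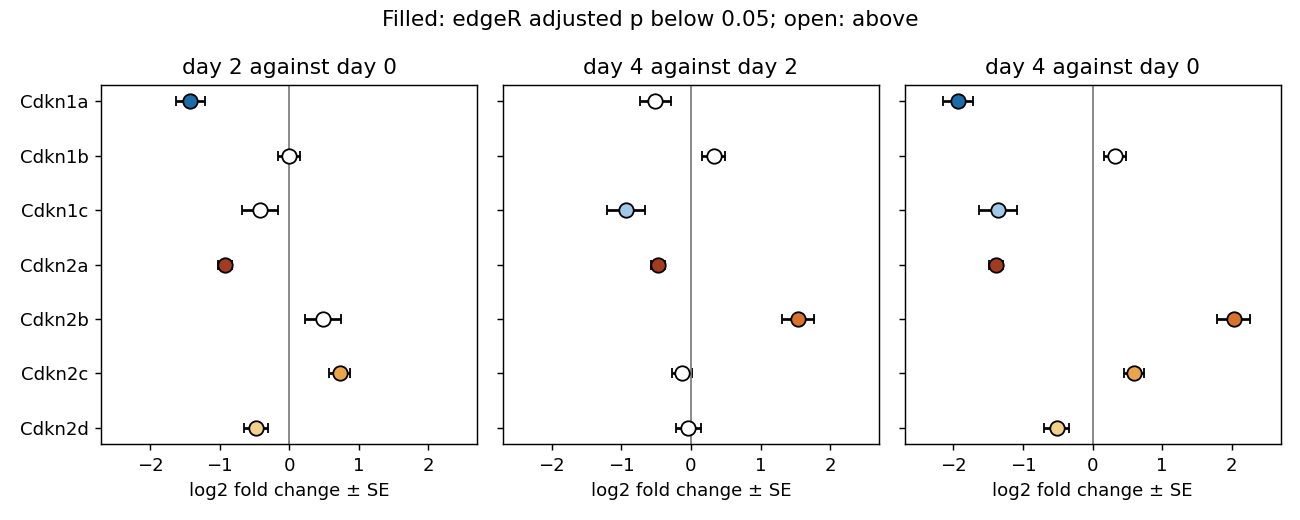
Log2 fold change (x axis) of each CDK inhibitor gene (y axis) in the 3 comparisons of days, with bars of 1 SE and filled points for an edgeR adjusted p below 0.05. Between day 0 and day 4, Cdkn2b at 2.02 and Cdkn2c at 0.60 lie right of 0 with filled points, Cdkn1b lies at 0.32 with an open point, and the other 4 lie left of 0.

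The day 0 replicates were more unlike than those of later days. Over all tested genes, the median difference between replicates was 0.20 on the log2 scale at day 0, 0.11 at day 2 and 0.13 at day 4. At day 0, 5 of the 7 CDK inhibitor genes were higher in replicate 2, as were 6 at day 2 and 7 at day 4, while the median of replicate 2 over replicate 1 for all tested genes was -0.02, 0.01 and 0.00 on the log2 scale.

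Scaling by total counts alone moved the log2 fold change at the middle of all tested genes from 0.01 to 0.21 at day 2, from 0.00 to -0.09 from day 2 to day 4 and from -0.02 to 0.10 at day 4 against day 0. Under that scaling 7593 transcripts were higher and 4187 lower at day 2, beside 5847 and 5792 with TMM factors, and 1880 were higher and 3787 lower from day 2 to day 4, beside 2682 and 3002. At day 4 against day 0, 7436 were higher and 5896 lower, beside 6643 and 6625. The sign of Cdkn1b at day 2 was the only sign among the 7 members that turned under that scaling, to 0.20. Beside that shift of all genes, Cdkn2b at day 2 (0.68; edgeR adjusted p = 0.0381), Cdkn1a from day 2 to day 4 (-0.60; edgeR adjusted p = 0.0476) and Cdkn1b at day 4 against day 0 (0.44; edgeR adjusted p = 0.0218) passed the threshold with total counts.

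Levels of different genes can be compared only per length of transcript. Counts of the p19Arf transcript appear to include reads of exons shared with the p16Ink4a transcript, so its value is not a level of p19Arf alone. Per kilobase, the p19Arf transcript of Cdkn2a was at 142 ± 4.51 CPM (SD, n = 2) at day 0, above Cdkn2d at 41.7 ± 12.9, Cdkn1b at 16.7 ± 4.40, Cdkn1a at 14.2 ± 4.36, Cdkn2c at 11.4 ± 2.08, Cdkn1c at 6.36 ± 2.77 and Cdkn2b at 0.810 ± 0.101. At day 4 the order was Cdkn2a at 54.3 ± 2.14 CPM per kb, Cdkn2d at 29.2 ± 0.915, Cdkn1b at 20.9 ± 1.91, Cdkn2c at 17.2 ± 1.40, Cdkn1a at 3.71 ± 0.755, Cdkn2b at 3.29 ± 0.00124 and Cdkn1c at 2.48 ± 0.452. The place of Cdkn1a depends on the length assumed, since its transcripts NM_007669 (1913 bases) and NM_001111099 (922 bases) had almost equal mean counts, 670.0 and 669.8. By the latter Cdkn1a was at 29.5 ± 9.06 CPM per kb at day 0 and 7.69 ± 1.57 at day 4, which places it above Cdkn1b at day 0 and apart from Cdkn2b at day 4. Counts so alike from lengths so unlike make it doubtful that reads were counted over 922 bases. Those values and places rest on that length.

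The sum of the 7 genes was 214 and 252 CPM per kb at day 0, 146 and 158 at day 2 and 126 and 136 at day 4. Every library of a later day lay below every library of an earlier one. Without Cdkn2a, the sum of the other 6 was 75.4 and 107 CPM per kb at day 0, 73.4 and 79.7 at day 2 and 72.9 and 80.6 at day 4, and the days overlapped. With NM_001111099 for Cdkn1a, an alternative chosen after seeing the data, the sum of the 6 was 87.3 and 125 CPM per kb at day 0, 78.6 and 85.8 at day 2 and 76.3 and 85.2 at day 4. There day 0 lay above the later days, but this rests on a length of 922 bases. The near identical counts of the Cdkn1a transcripts make that length doubtful. The fall of the sum thus lay mostly in Cdkn2a, whose share of the sum went from 64.8% and 57.6% at day 0 to 42.0% and 40.9% at day 4. Here the p19Arf transcript stands for Cdkn2a, and its counts appear to include reads of exons shared with the p16Ink4a transcript. The p16Ink4a transcript had means of 121 CPM per kb at day 0 and 47.5 at day 4. The share of Cdkn1b was 6.35% and 7.86% at day 0 and 15.6% and 16.3% at day 4, that of Cdkn2c 6.0% and 3.9% at day 0 and 12.9% and 13.3% at day 4, and that of Cdkn2b 0.412% and 0.293% at day 0 and 2.62% and 2.41% at day 4.

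**Figure D3:**
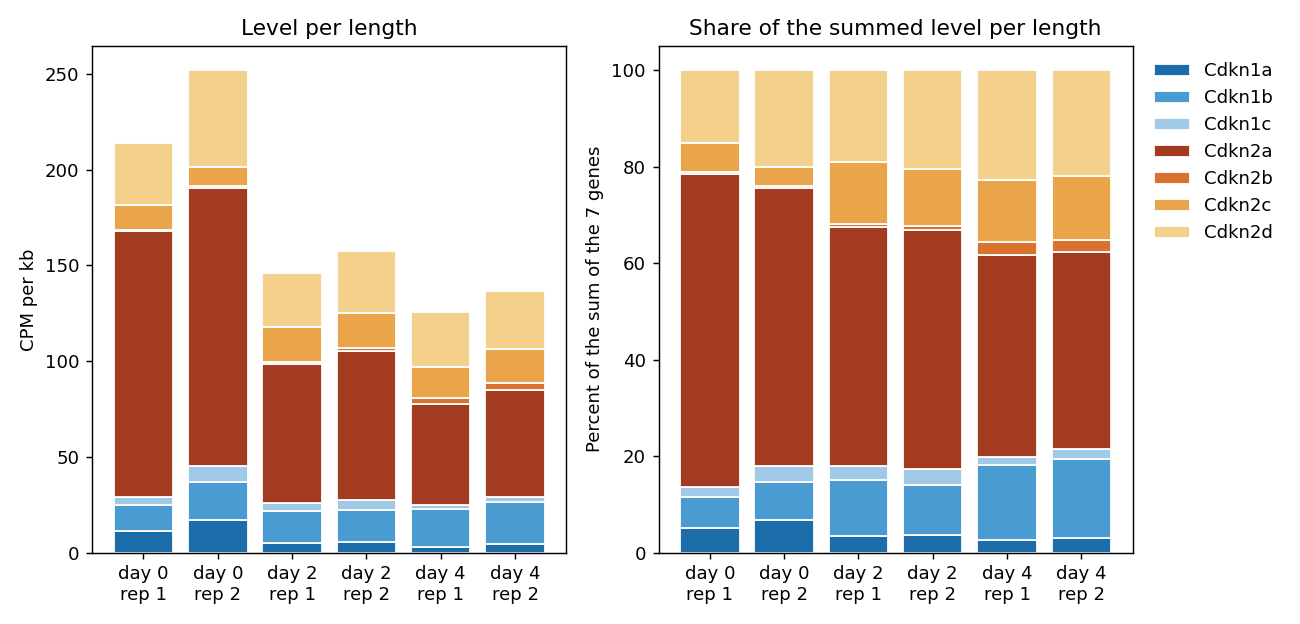
Summed level of the 7 CDK inhibitor genes per kilobase of transcript in each library (left, CPM per kb) and the percent each gene contributes (right). Cdkn2a, by its p19Arf transcript, contributes 64.8% and 57.6% at day 0 and 42.0% and 40.9% at day 4.

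Most genes listed as cyclin and CDK partners were lower. The list also holds Cdk7, Ccnh and Mnat1 of the CDK-activating kinase, which is not a known target of the inhibitors. Of its 15 genes, Ccnd1 was at 0 counts in every library and the other 14 were tested. Between day 0 and day 4, 1 was called higher and 10 lower, beside 35.5% and 36.4% of all tested genes, with a median of -1.03 beside -0.02. At day 2 the counts were 1 higher and 10 lower (31.0% and 31.5% of all genes), and from day 2 to day 4 they were 2 higher and 6 lower (14.0% and 16.2%). Cdk4, the main target of the INK4 proteins, was at 661 and 462 CPM at day 0 and 234 and 205 CPM at day 4 (-1.36 ± 0.16; edgeR adjusted p = 2e-05), and Cdk6 fell by 0.82 on the log2 scale (edgeR adjusted p = 2.92e-05). Ccnd2, a D-type cyclin, was at 180 and 183 CPM at day 0 and at 447 and 468 CPM at day 4 (1.33 ± 0.11; edgeR adjusted p = 1.27e-06), whereas Ccnd3 was called lower at day 2 (-0.37; edgeR adjusted p = 0.0226) and higher from day 2 to day 4 (0.66; edgeR adjusted p = 0.00321), with a value of 0.29 over 4 days (edgeR adjusted p = 0.0544). Ccna2 at -1.87, Ccne2 at -1.64, Ccnb1 at -1.50, Ccne1 at -1.46, Cdk1 at -1.33, Ccnb2 at -1.11, Ccnh at -0.95 and Cdk7 at -0.35 were also called lower. Cdk2, the kinase bound by CIP/KIP proteins, was at 63.5 and 52.3 CPM at day 0 and at 47.1 and 56.5 CPM at day 4 and was not called (-0.16 ± 0.13; edgeR adjusted p = 0.277), nor was Mnat1 at -0.34.

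Among 13 genes for pocket proteins and E2F factors, all tested, 4 were called higher and 6 lower between day 0 and day 4 (35.5% and 36.4% of all genes), with a median of -0.23 beside -0.02. Rb1, the retinoblastoma gene, rose from 34.3 and 35.4 CPM to 79.2 and 75.8 CPM (1.15 ± 0.11; edgeR adjusted p = 2.67e-06), and its relative Rbl2 (1.37) and the E2F partner Tfdp2 (1.47) were higher as well. E2f8 at -1.66, E2f4 at -1.41 and Tfdp1 at -1.38 had the largest falls of that list.

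Genes for the ubiquitin ligases that destroy CIP/KIP proteins numbered 12, all of them tested. Of these, 2 were called higher (35.5% of all genes) and 10 lower (36.4%) between day 0 and day 4, and the median was -0.50 beside -0.02. Cks1b (-1.81) and Skp2 (-1.61), which together mark p27 for destruction, had the largest falls, followed by Cdc20 (-1.20). Rnf123, part of the KPC ligase for p27, was at 93.6 and 79.8 CPM at day 0 and at 217 and 220 CPM at day 4 (1.33), whereas its KPC partner Ubac1 was called lower (-0.35; edgeR adjusted p = 0.0281). Cul4a was at 0.99. The level of the p27 protein was not measured.

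Of 23 genes for transcriptional regulators of CDK inhibitors, 20 were tested (Gfi1, Klf4 and Trp73 were too low), and 9 were higher and 6 lower between day 0 and day 4, where 35.5% and 36.4% of all genes were, with a median of 0.20 beside -0.02. Id1, an inhibitor of helix-loop-helix factors, fell from 42.7 and 95.9 CPM at day 0 to 3.21 and 3.62 CPM at day 4 (-4.34 ± 0.34; edgeR adjusted p = 9.13e-07). Egr1 (-1.20) and Myc (-1.12) followed. Egr1 was at -2.20 at day 2 and was then called higher from day 2 to day 4 (1.00; edgeR adjusted p = 0.000776). The largest rises were those of Foxo1 (1.31), Foxo3 (0.98) and Smad3 (0.88).

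Cdkn1a is a target of p53, and other p53 targets were listed beside it. Of 18 such genes, 15 were tested (Eda2r, Fas and Plk2 were too low), and 9 were higher (35.5% of all genes) and 3 lower (36.4%) over the 4 days, with a median of 0.60 beside -0.02. Trp53inp1 (4.59), Btg2 (3.66) and Bbc3 (2.03) had the largest rises, and Aen (-1.73), Bax (-1.33) and Sesn2 (-0.73) the falls. Cdkn1a itself fell by 1.93 on the log2 scale.

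The 17 genes listed for DNA synthesis and proliferation were all called lower between day 0 and day 4, as were 36.4% of all genes, with a median of -1.49 beside -0.02. Rrm2 at -2.60, Tyms at -2.40 and Mcm5 at -2.20 had the largest falls. At day 2, 14 of the 17 were called lower (31.5% of all genes), and from day 2 to day 4 all 17 were (16.2%). Their fall ran beside that of Cdkn1a, Cdkn1c, Cdkn2a and Cdkn2d and beside the rise of Cdkn2b and Cdkn2c, and the relation between them was not tested.

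**Figure D4:**
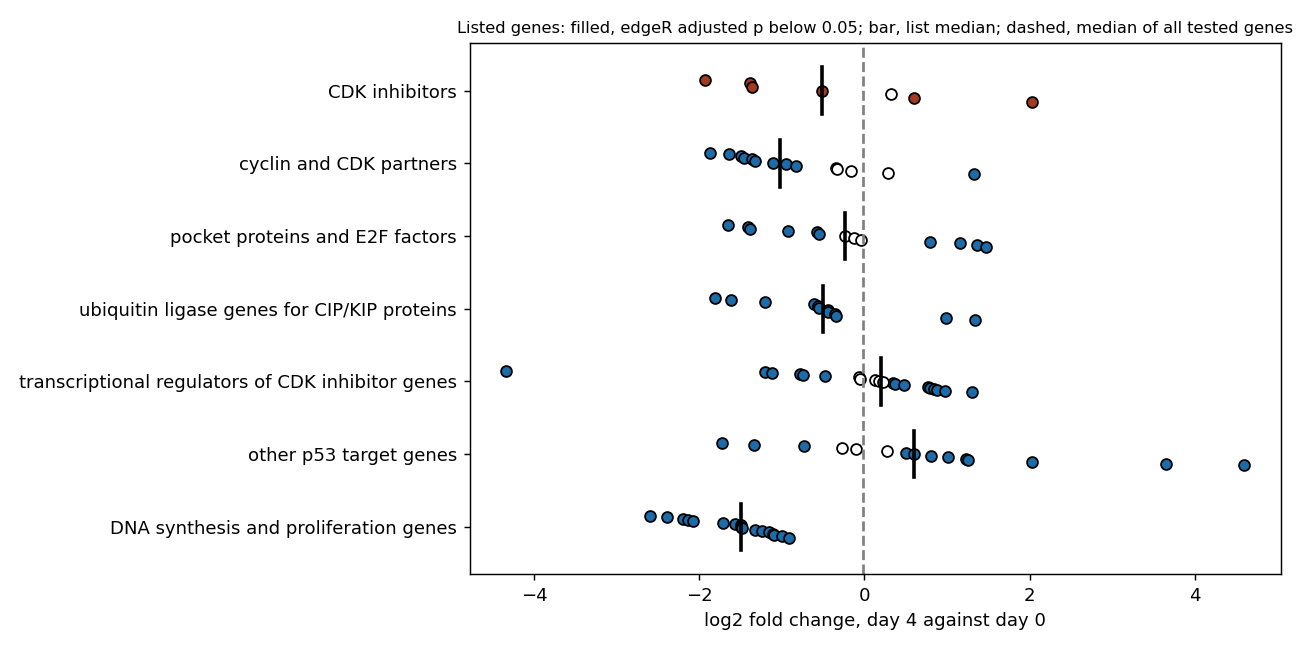
Log2 fold change between day 0 and day 4 (x axis) of the CDK inhibitor genes and of each listed group of genes (y axis), with filled points for an edgeR adjusted p below 0.05, a bar at the median of the group and a dashed line at the median of all tested genes. The CDK inhibitors spread from -1.93 to 2.02, while all 17 DNA synthesis and proliferation genes lie below 0.

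The genes whose pattern over the 6 libraries was closest to that of each called member were found among 10446 genes, by the root mean square distance of log2 CPM centred on its mean. Alyref, Kcnk6 and Cdca4 lay closest to Cdkn2a, at distances of 0.04, 0.05 and 0.06. Csf2rb (0.17), Oplah (0.20) and Relb (0.21) lay closest to Cdkn2b, and Ctdsp1 (0.04), Ccl27a (0.05) and E330009J07Rik (0.05) to Cdkn2c. For Cdkn2d they were Klf1, Mdc1 and Ralb at 0.05, 0.06 and 0.06, where Klf1 is an erythroid factor that shared the high value in day 0 replicate 2, at 309 CPM against 192 CPM in replicate 1. For Cdkn1a they were Gm6793 (0.12), Ppp1r18 (0.15) and Elp6 (0.15), and for Cdkn1c N4bp3 (0.11), Cdr2l (0.17) and Rad18 (0.17).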

How the data were processed

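Counts per RefSeq transcript were used as deposited by the authors, as whole read counts that were not normalized. The submitters' processing notes name cutadapt, TopHat, HTSeq and DESeq2 and the mm10 build, and the strand setting and overlap mode of the counting are not given in the sources used here. Reads outside any transcript were left out. They made up 50.5% to 58.4% of their number plus the counts on transcripts, where a read may count more than once, so this is not a share of reads. Of 32654 transcripts, 32199 were matched to a symbol in the RefSeq table and 171 in GENCODE. The transcripts of Cdkn1a had near identical counts, so transcripts of a gene were taken to have been counted separately, in which case a read can count for several of them. Levels per length used GENCODE lengths.

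All 6 libraries were fitted together with edgeR 4.0.16 (R 4.3.3; TMM factors, filterByExpr, quasi-likelihood test), and p was adjusted over 18351 transcripts after Benjamini and Hochberg. The same fit was also run on counts simulated from its fitted values, with results not given here. SE is the log2 fold change divided by the square root of F. DESeq2 1.42.0, other scalings, filters, transcripts and the omission of each library were tried as alternatives. Named genes were the 7 members, every tested cyclin and CDK partner, up to 3 called rises and 3 called falls per list, the 3 nearest patterns per called member, and Ubac1 as the partner of Rnf123. The members and lists were chosen with earlier results of these data known, and the motifs after the promoter windows had been seen. For that reason the CRE motif TGACGTCA, whose letters stand in the printed Cdkn2b window, and a further E2F spelling were dropped.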

Additional observations from a re-analysis of the deposited data

Results flagged for a closer look

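The change of Cdkn2c from day 2 to day 4 minus its change from day 0 to day 2 was -0.85 ± 0.25 on the log2 scale (edgeR adjusted p = 0.0249), so the 2 steps differed by a test of the difference itself. It rose in the earlier step and had a value of -0.13 in the later one. Each library was also left out in turn, a setting chosen after seeing the data. The call was lost without either day 2 library (-0.85 and -0.85) and without replicate 1 of day 4 (-0.77). Those fits also called fewer of all tested transcripts from day 2 to day 4.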

How the results depend on the processing

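Of the 515 alternative values computed, 447 kept their direction and their side of the threshold, or for counts stayed within 1.5 times. The calls of Cdkn1a, Cdkn2a and Cdkn2c at day 2, of Cdkn2b from day 2 to day 4 and of Cdkn1a, Cdkn1c, Cdkn2a, Cdkn2b and Cdkn2c over 4 days held in every fit tried. The cause of the changes below was not tested.

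For Cdkn1b at day 2 the value turned positive with 1 transcript per gene (0.0083), with no filter (0.0064) and with total counts (0.20). With no filter, Cdkn1c at day 2 (-0.41), Cdkn1a from day 2 to day 4 (-0.51) and Cdkn1b over 4 days (0.33) were called. With total counts, Cdkn2b at day 2 (0.68), Cdkn1a from day 2 to day 4 (-0.60) and Cdkn1b over 4 days (0.44) were called, and Cdkn2d was not, at day 2 (-0.28) or over 4 days (-0.40). With only the 2 days compared, Cdkn2d at day 2 was not called (-0.49), and Cdkn1a (-0.52) and Cdkn1b (0.32) were called from day 2 to day 4, making 5 members. For that step the fit called 8187 of 17901 tested transcripts, beside 5684 of 18351 with all 6 libraries fitted together.

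An adjusted p below 0.01 left out Cdkn2d at day 2 (-0.48) and over 4 days (-0.51) and Cdkn1c from day 2 to day 4 (-0.94). A limit of 1 on the size of the log2 fold change left 1 member at day 2 and 1 from day 2 to day 4. The share of all tested genes that passed this limit is not given here, so these counts do not set the family apart. The limit left out Cdkn2a (-0.92), Cdkn2c (0.72) and Cdkn2d (-0.48) at day 2. From day 2 to day 4 it left out Cdkn1c (-0.94) and Cdkn2a (-0.47), and over 4 days Cdkn2c (0.60) and Cdkn2d (-0.51).

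With each library left out, where the lone library of a day is assumed to vary like the others, values at day 2 ranged from -0.25 to 0.29 for Cdkn1b, -0.80 to 0.11 for Cdkn1c, 0.13 to 0.75 for Cdkn2b and -0.76 to -0.13 for Cdkn2d. From day 2 to day 4 they ranged from -0.74 to -0.32 for Cdkn1a, 0.22 to 0.41 for Cdkn1b and -1.15 to -0.76 for Cdkn1c. In the same step they ranged from -0.52 to -0.42 for Cdkn2a, -0.21 to -0.048 for Cdkn2c and -0.14 to 0.074 for Cdkn2d. Over 4 days they ranged from 0.072 to 0.61 for Cdkn1b, -1.75 to -0.83 for Cdkn1c and -0.80 to -0.17 for Cdkn2d. For the differences between steps, omissions added after seeing the data gave ranges from 0.56 to 1.19 for Cdkn1a, 0.034 to 0.57 for Cdkn1b, -1.05 to -0.14 for Cdkn1c, 0.34 to 0.55 for Cdkn2a, 0.52 to 1.77 for Cdkn2b, -1.05 to -0.66 for Cdkn2c and 0.084 to 0.72 for Cdkn2d. With total counts they were 0.63, 0.043, -0.80, 0.17, 0.78, -1.13 and 0.15 in that order, with Cdkn2c alone called.

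Same-numbered replicates did not deviate together (correlations of 0.03, 0.05 and 0.08). With a replicate block, 4, 4 and 6 members were called in the 3 comparisons, beside 11564, 5578 and 13246 of all 18351 tested transcripts. The replicate block added Cdkn1a from day 2 to day 4 (-0.53) and its difference between steps (0.87), and turned Cdkn1b at day 2 to 0.019. Cdkn2b rests on 50 to 207 counts per library.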
